A study of Homo sapiens and Mus musculus with 54 samples.

Results

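In mouse liver, 24396 of 41678 binding sites of the aryl hydrocarbon receptor (AhR) shared no base with any region in the H3K27ac list of mouse hepatocytes. These sites, 58.5% of the liver AhR list (95% Wilson interval 58.1 to 59.0), are described here. They were chosen by position alone, from the coordinates of both deposited lists in the build mm10. The share itself therefore describes the choice and is not a finding. They are referred to as unlisted peaks, since no listed region covers them. The other 17282 liver AhR peaks, which did share a base with an H3K27ac region, are referred to as overlapping peaks and serve as the comparison.

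The study concerns vitamin B2 supply, AhR binding and enhancer activity in liver cells. AhR was profiled by ChIP-seq in livers labelled B2_minus, with 3 libraries, and in livers labelled Control, with 3 libraries, both at 4 weeks, and each of the 6 had an input library. H3K27ac was profiled, also at 4 weeks, in hepatocytes named for a floxed AhR gene. There were 3 libraries each for B2_minus with Ad_Cre, Control with Ad_Cre, B2_minus with Ad_Cont and Control with Ad_Cont. Strain, sex and age are not given in the labels. All hepatocyte groups carry the floxed gene, and Cre removes sequence between lox sites, so the H3K27ac libraries come from cells with and without Cre. The AhR libraries came from the whole liver, which also holds endothelial, stellate, immune and bile duct cells. AhR chromatin was fixed with DSG and formaldehyde, and H3K27ac chromatin with formaldehyde alone. The protocol speaks of biological replicates, and the labels do not say how many animals stand behind a library.

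AhR is a transcription factor that waits in the cytosol in a chaperone complex. When a ligand binds, it moves to the nucleus, pairs with ARNT and binds xenobiotic response elements, whose core is GCGTG. In liver it is best known for inducing cytochrome P450 genes of the CYP1 family. H3K27ac, acetylation of a lysine of histone H3, is found at enhancers and promoters in use, and vitamin B2 is the precursor of the flavin cofactors FMN and FAD.

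The deposited lists hold positions only, with no value for a library, so no difference between B2-deficient and control livers was measured and no test was run. The depth of the libraries is unknown. Wilson intervals cover counting error over peaks only and are too narrow, because neighbouring peaks are not independent. No mouse gene table or genome was used here, so peaks are named by coordinates and their sequence was not read. The lack of a listed region is also not a measurement that acetylation was absent, because the H3K27ac list of human HepG2 cells from the same study holds few regions within 3 kb of gene starts.

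The choice rests on a sharp line, and few peaks lay close to it. Of the peaks without a shared base, 43 had an H3K27ac region within 10 bp. Of the peaks with one, 44 shared no more than 10 bp. The median overlap of an overlapping AhR peak was 225 bp, and 97.1% of them shared at least 100 bp.

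The peaks without H3K27ac were close in width to those with it. Their median width was 248 bp (quartiles 227 and 277 bp), against 250 bp (230 and 276 bp) for the overlapping peaks. The widest of them measured 1199 bp, against 1096 bp.

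Each peak name carries a final number, the merge number, taken to count the peaks joined into that entry. Among the peaks without H3K27ac, 14781 had a merge number of 1, 9572 had 2, 37 had 3 and 6 had 4. A merge number of 2 or more was thus held by 39.4% of them (95% Wilson interval 38.8 to 40.0), against 51.1% of overlapping peaks (50.3 to 51.8). Merging can widen an entry, and width went with merging in both classes. The difference kept its direction in each of the 5 width classes. From 220 to 240 bp, 32.5% of peaks without H3K27ac were merged, against 44.5% with it. From 240 to 260 bp the shares were 47.6% without and 57.6% with the mark. At 300 bp and above they were 54.6% and 66.4%. The lower merged share was not particular to liver. In HepG2, 22.9% of AhR peaks without H3K27ac were merged (95% Wilson interval 22.3 to 23.5), against 50.3% of those with it (49.8 to 50.8). The sources used here do not say which libraries or conditions were joined.

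The share of AhR peaks without H3K27ac varied by chromosome. Like the share in the whole list, these values describe the choice. Among the 19 autosomes it had a median of 57.6%, with the lowest value on chromosome 13, 52.4% (95% Wilson interval 50.0 to 54.7). It was highest on chromosome 7, at 66.4% (64.5 to 68.2), followed by chromosome 11 at 64.5% and chromosome 17 at 62.0%. Chromosome X stood above every autosome with 397 of 554 peaks, 71.7% (67.8 to 75.3). The supply of H3K27ac regions differed too. Chromosome 13 had 2.02 H3K27ac regions for each AhR peak and chromosome 11 had 1.39, the extremes among all 20. Chromosome X, with 1.59, lay between them. On X the unlisted peaks were also remote, with a median distance of 22213 bp to the nearest H3K27ac region and 30.5% beyond 50 kb. On autosomes that median ran between 5277 bp on chromosome 4 and 7089 bp on chromosome 1.

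**Figure D1:**
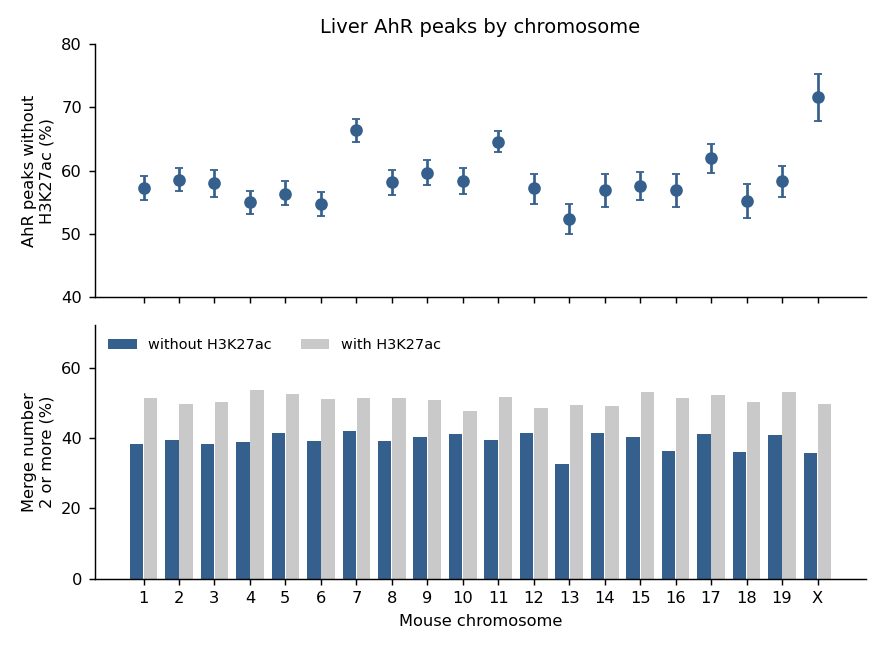
The upper panel gives the percentage of liver AhR peaks without H3K27ac on each mouse chromosome, with 95% Wilson intervals as bars, on an axis that starts at 40%. The lower panel gives the percentage with a merge number of 2 or more for peaks without and with H3K27ac. Chromosome X is highest in the upper panel, at 71.7%, and in the lower panel the peaks without H3K27ac are below those with it on 20 of 20 chromosomes.

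Most of these AhR sites lay within 10 kb of a listed H3K27ac region. The median distance to the nearest H3K27ac region was 6115 bp (quartiles 2819 and 16108 bp). Within 1 kb there were 2867 of them (11.8%), within 10 kb 15583 (63.9%) and within 50 kb 22579 (92.6%). A region within 1 kb on both sides was found for 314 (1.29%). Of the overlapping AhR peaks, 53.3% had a further H3K27ac region within 1 kb, and 14.8% had one on both sides. Both classes were chosen on the position of the mark, so these shares describe the choice. HepG2 AhR peaks without H3K27ac had a median distance of 6684 bp, and 61.7% lay within 10 kb of the mark, so this nearness was not particular to liver. The share of the genome within 10 kb of a listed region is not given here.

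The distances did not fall off smoothly. The numbers fell from 1744 peaks within 500 bp of an H3K27ac region to 802 at 2000 to 2500 bp, then climbed to 1158 at 2500 to 3000 bp and 1286 at 3000 to 3500 bp. Beyond that they fell again, to 466 at 7500 to 8000 bp. There were more peaks at 3000 to 3500 bp than at 2000 to 2500 bp on 20 of 20 chromosomes, with a ratio between 1.11 on chromosome 18 and 2.60 on chromosome X, where the counts were 13 and 5. In HepG2, a human liver cancer cell line, the corresponding counts were 633 at 2000 to 2500 bp, 672 at 2500 to 3000 bp and 697 at 3000 to 3500 bp, a smaller step than in liver.

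**Figure D2:**
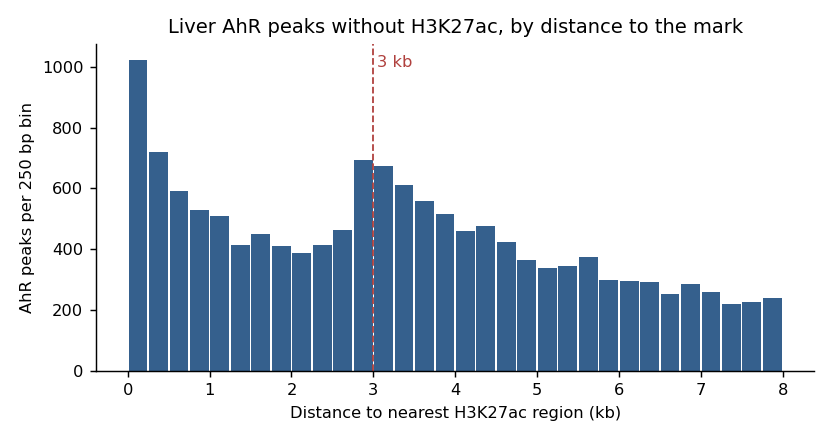
The number of liver AhR peaks without H3K27ac is plotted in bins of 250 bp against the distance to the nearest H3K27ac region in kb, up to 8 kb. Bins drop to 389 peaks at 2000 to 2250 bp and step up to 694 at 2750 to 3000 bp, next to the dashed line at 3 kb.

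The density of the peaks also had a step, at an interval length of 6 kb. Between neighbouring H3K27ac regions, intervals of 4 to 6 kb held 564 AhR peaks, 28.0 per Mb of interval. Intervals of 6 to 7 kb held 527, or 50.6 per Mb. The 4 classes below 6 kb had between 24.7 and 32.2 per Mb, and the density declined again with length, to 23.3 per Mb at 20 to 50 kb and 2.91 per Mb above 100 kb. Intervals under 6 kb together held 1595 of the peaks, 6.54% (95% Wilson interval 6.23 to 6.86), on 2.06% of the bases between H3K27ac regions. The other 22801 peaks (93.5%) lay in longer intervals or at the end of a chromosome. The 6 kb limit was chosen after the distances had been seen.

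**Figure D3:**
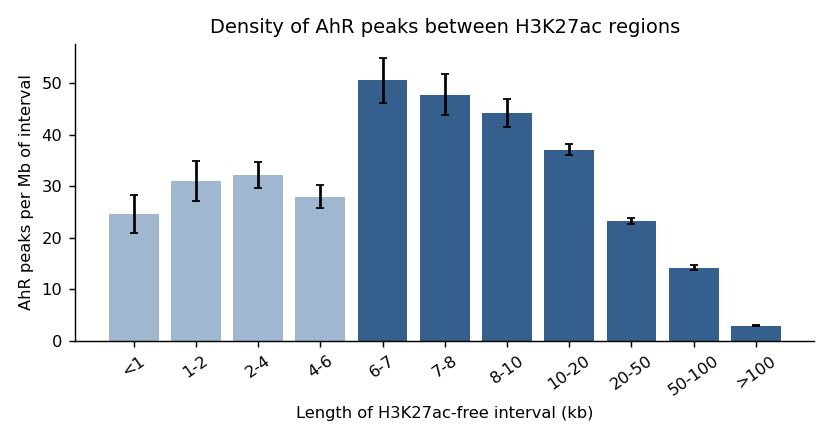
Liver AhR peaks without H3K27ac are shown per Mb of interval, for intervals between neighbouring H3K27ac regions grouped by length in kb, with 95% counting intervals (normal approximation) as bars. Pale bars are intervals under 6 kb, and the density steps up from 28.0 per Mb at 4 to 6 kb to 50.6 per Mb at 6 to 7 kb.

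Inside intervals just above 6 kb, AhR peaks gathered at the centre. Of 1086 peaks in intervals of 6 to 8 kb, 350 lay in the central 20% of the length, which is 32.2% (95% Wilson interval 29.5 to 35.1). In intervals of 4 to 6 kb that part held 106 of 564 peaks, 18.8% (15.8 to 22.2). In intervals of 8 to 12 kb it held 560 of 2001, 28.0% (26.1 to 30.0), and at 12 to 20 kb 741 of 3372, 22.0% (20.6 to 23.4). The central peaks of the 6 to 8 kb intervals had a merge number of 2 or more in 47.7% of cases, against 39.3% of the other peaks there. Another unlisted peak stood within 1 kb of 49.1% of the central ones, against 39.1% of the others. Some of the others lie near an end of the interval and have less room beside them. The part of room in this difference was not tested.

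**Figure D4:**
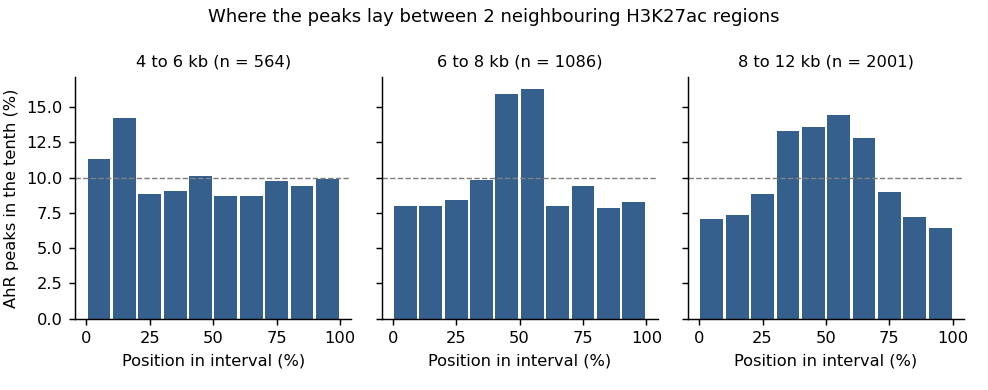
Each panel shows, for liver AhR peaks without H3K27ac in intervals of one length class, the percentage of peaks in each of 10 equal parts of the interval, from its left to its right end. The dashed line marks an even spread of 10% in each. At 4 to 6 kb the 10 parts hold between 8.69% and 14.2%, and at 6 to 8 kb the 2 central parts reach 15.9% and 16.3%.

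Gene starts could be placed in the HepG2 lists. Those lists use the build hg38. RefSeq starts of GRCh38.p14 were at hand for 15843 of 20056 protein-coding genes (79.0%), none of them on chromosome 8, which was left out of these counts. Counts near a start are therefore too low. The HepG2 AhR libraries (2 B2_minus and 2 Cont) and H3K27ac libraries (5 B2_minus and 5 Cont) date from day 12. Of 102399 H3K27ac regions in HepG2, 1190 (1.16%, 95% Wilson interval 1.10 to 1.23) had their centre within 3 kb of such a start. There were 226 at 2500 to 3000 bp and 1463 at 3000 to 3500 bp. HepG2 AhR peaks without H3K27ac lay within 3 kb of a start in 31.9% of cases (31.2 to 32.7), against 0.804% of those with it (0.719 to 0.898). An AhR peak with H3K27ac has to touch a listed region, so the second share was set by how few regions the list holds there. For the same reason most AhR peaks near a start fall into the class without H3K27ac, which raises the first share. The counts within 3 kb were 5083 of 15921 peaks without it and 308 of 38312 with it. Neither share measures a preference of these peaks for starts.

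In HepG2, too, AhR peaks without H3K27ac were denser in intervals of 6 to 7 kb, at 21.2 per Mb, than at 4 to 6 kb, at 9.16 per Mb. Of the central peaks in intervals of 6 to 8 kb, 38.3% lay within 1 kb of a start, against 8.29% of the other peaks in those intervals. Within 3 kb of a start the shares were close, 40.3% (95% Wilson interval 32.8 to 48.2) and 39.2% (35.1 to 43.4). In intervals under 6 kb, 2.10% of HepG2 AhR peaks without H3K27ac lay within 3 kb of a start. With few listed regions within 3 kb of a start, most starts in an interval of 6 to 8 kb have to lie near its centre. For the same reason few starts can lie in a shorter interval. Both of these results thus follow at least in part from the list, and how far they do was not tested. The central 20% of the 6 to 8 kb intervals held 32.2% of peaks in liver (29.5 to 35.1) and 22.0% in HepG2 (19.1 to 25.2), an interval that takes in an even spread. At 8 to 12 kb the central shares were 28.0% in liver and 24.3% in HepG2, and at 12 to 20 kb they were 22.0% and 22.5%.

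The HepG2 H3K27ac list thus holds few regions within 3 kb of gene starts, and the liver AhR peaks have a step at the same distance from the mouse list, larger than the step in HepG2 itself. Mouse gene starts were not placed here, so how many of the 24396 liver sites lie at promoters was not tested. The name "without H3K27ac" is therefore used only in the sense of the list. The 1595 peaks in intervals shorter than 6 kb have listed regions close on both sides. Of these, 34.0% were merged (95% Wilson interval 31.8 to 36.4) against 39.8% of those in longer intervals. Another unlisted peak lay within 1 kb of 17.2% of them, against 31.5%. The shortest intervals leave little room for a second one, and an AhR peak across the border belongs to the other class by the rule. By interval length the share was 19.5% at 2 to 4 kb, 17.7% at 4 to 6 kb and 45.5% at 6 to 7 kb. The part of room in this difference was not tested.

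The merged share varied with distance from the mark. The merged share was 33.5% (95% Wilson interval 30.4 to 36.7) within 200 bp of an H3K27ac region and 38.2% (34.9 to 41.6) at 2000 to 2500 bp. It stood at 46.0% (43.2 to 48.9) at 2500 to 3000 bp, the highest of the 16 distance classes. The share with another such peak within 1 kb was 14.3% within 200 bp of the mark, 44.0% at 3500 to 4000 bp and 16.9% at 50 to 100 kb. Close to the mark that share is limited by the rule, since AhR peaks on the mark fall into the other class. Median widths stayed between 242 and 252 bp in all 16 classes.

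**Figure D5:**
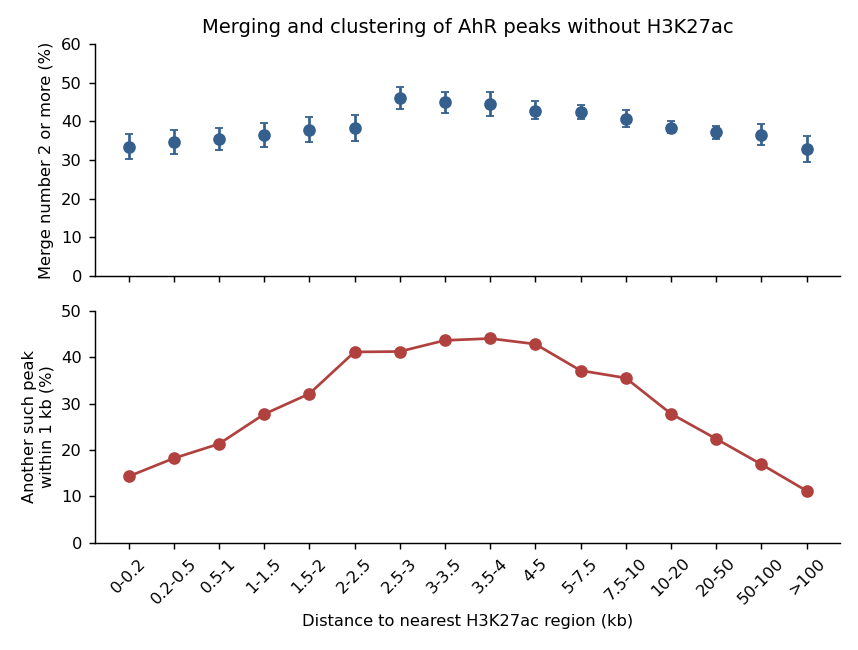
For liver AhR peaks without H3K27ac, grouped into 16 classes of distance to the nearest H3K27ac region in kb, the upper panel gives the percentage with a merge number of 2 or more, with 95% Wilson intervals as bars. The lower panel gives the percentage with another such peak within 1 kb. The merged share steps up to 46.0% at 2.5 to 3 kb, and clustering is highest, at 44.0%, at 3.5 to 4 kb.

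Neighbouring AhR peaks were counted within and between the classes. Another unlisted peak lay within 1 kb of 30.6% of the unlisted ones (95% Wilson interval 30.0 to 31.2) and within 50 kb of 86.2%. Among overlapping AhR peaks, 4327 of 17282 had another of their own kind within 1 kb (95% Wilson interval 24.4% to 25.7%). The unlisted class is the larger, and the part of its size in this difference was not tested. On 17 of 20 chromosomes the clustered share was higher without H3K27ac than with it. In HepG2 the order was the reverse, with 11.6% of AhR peaks without H3K27ac having another of their kind within 1 kb (11.1 to 12.1), against 18.7% of those with it (18.3 to 19.1), and there the class with H3K27ac is the larger. An overlapping AhR peak lay within 1 kb of 6.02% of the unlisted liver peaks, within 5 kb of 24.1% and within 50 kb of 71.0%. An overlapping neighbour needs a listed region close by, which 11.8% of the unlisted peaks had within 1 kb, so the gap between same-class and other-class neighbours follows at least in part from the rule.

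When all AhR peaks no more than 1 kb apart were joined, 5829 clusters of at least 2 peaks formed. Of these, 2880 (49.4%) were made of unlisted peaks alone, 1661 (28.5%) of overlapping peaks alone and 1288 (22.1%) of both. The split by class again follows in part from the rule. Alone, with no AhR peak of any kind within 1 kb, stood 15770 of the unlisted peaks (64.6%), against 11860 of the overlapping peaks (68.6%) and 66.3% of the whole AhR list.

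Joined among themselves, the unlisted peaks formed 3081 clusters of 2 or more, with 7463 peaks, and 113 clusters of 5 or more, with 711 peaks. Overlapping AhR peaks formed 36 clusters of 5 or more, with 223 peaks. These counts come from classes of unlike size, 24396 unlisted and 17282 overlapping peaks. All 41678 liver AhR peaks, joined without regard to class, formed 195 such clusters with 1337 peaks. The counts alone therefore do not show that unlisted peaks cluster more than the whole list. The unlisted clusters of 5 or more had a median span of 3515 bp, of which peaks covered 48.9%. In HepG2 the 16641 AhR peaks without H3K27ac formed 8 such clusters, with 41 peaks in all and 6 in the largest. The 40098 HepG2 AhR peaks with it formed 17, with 93 peaks in all and 7 in the largest. Those classes also differ in size, so the counts alone do not compare their clustering.

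The 6 largest clusters, chosen after their values were seen, are given by position in mm10. The largest, at chr7:140765745-140776422, held 17 peaks, 7 of them merged, and peaks covered 58.4% of its 10677 bp. Its nearest H3K27ac regions stood 8914 bp to the left and 51700 bp to the right. The next, at chr12:103948157-103957311, held 16 peaks, 6 of them merged, in 9154 bp, with the mark 40049 bp to the left and 4444 bp to the right. Both thus lay in long stretches with no listed region.

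A cluster of 13 peaks at chr16:22890233-22897629, 7 of them merged, had H3K27ac regions 1947 bp to its left and 576 bp to its right. A cluster of 12 at chr4:49542823-49549778 was the most tightly packed of the 6, with peaks on 70.0% of its 6955 bp, and it lay 2853 and 3565 bp from the mark. The 11 peaks at chr11:99048731-99055553 lay 628 and 7195 bp from it, and the 11 at chr6:71199682-71207306, of which 8 were merged, lay 3231 and 26645 bp from it. None of these 6 clusters held an overlapping AhR peak or an H3K27ac region within its bounds. The genes at these positions were not looked up, since no mouse annotation was used.

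On a larger scale, 8792 windows of 100 kb held at least 1 unlisted AhR peak, and 3597 of them held just 1. Windows with 10 or more numbered 243 and held 3323 peaks, 13.6% of all. The fullest window, at 12700000 to 12800000 on chromosome 18, held 38 peaks, 17 of them merged, next to 9 overlapping AhR peaks and 16 H3K27ac regions. The neighbouring window, at 12600000 to 12700000, held 31 peaks, of which 4 were merged, with 15 overlapping AhR peaks and 21 H3K27ac regions. These adjacent windows, both rich in AhR, thus differed in their merged peaks.

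Windows on chromosomes 12 and 15 held 33 each. On chromosome 12, at 103900000 to 104000000, 16 peaks were merged, and 6 overlapping AhR peaks and 13 H3K27ac regions lay alongside. On chromosome 15, at 85700000 to 85800000, 13 were merged, next to 15 overlapping AhR peaks and 18 H3K27ac regions. On chromosome 8, at 114100000 to 114200000, 31 peaks, 12 of them merged, had 5 overlapping AhR peaks and 6 H3K27ac regions alongside. The fullest windows were therefore not empty of the mark.

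Of the 6 peaks with a merge number of 4, the 5 widest all had a close neighbour. The widest spanned 1199 bp at chr3:138291756-138292955, with another unlisted AhR peak 424 bp away and the nearest H3K27ac region at 8900 bp. A peak of 923 bp at chr19:5842645-5843568 had the mark at 345 bp. A peak of 913 bp at chr18:12708272-12709185 lay in the fullest window and had it at 4420 bp. The last 2, at chr15:102100202-102100895 and chr12:103903748-103904334, had it at 635 and 3538 bp. All 5 had another unlisted AhR peak within 547 bp.

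At the other end, 1817 peaks (7.45%) lay more than 50 kb from any H3K27ac region and 700 (2.87%) more than 100 kb away, counting 1 on a sequence with no listed region. Those beyond 100 kb were merged in 32.7% of cases (95% Wilson interval 29.3 to 36.3), against 39.4% over all peaks without H3K27ac, and 11.1% had another such peak within 1 kb, against 30.6%. Chromosome X held 72 of the 700, 10.3%, against 1.63% of all. The most remote, at chr1:102518127-102518356, lay 1810929 bp from the nearest region. The peaks at chr1:102561352-102561602, at 1771458 bp, and at chr1:102735452-102735658, at 1597402 bp, lay in the same stretch. The peak at chr13:86046733-86046966 stood 1697098 bp away. That at chrX:68678409-68678672 stood 1492682 bp away and was the only one of these 5 with a merge number of 2.

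Of the 2666 H3K27ac regions nearest to an unlisted AhR site within 1 kb, 44.6% shared a base with another AhR peak. That share was 39.3% for regions nearest to sites at 1000 to 3000 bp, 30.2% at 3000 to 10000 bp and 21.7% beyond, against 25.1% of all 69615 regions. These neighbours had merge numbers of 2 or more in 75.2%, 75.1%, 76.5% and 77.9% of cases by increasing distance, against 77.3% of all regions and 86.9% of regions that shared a base with an AhR peak. A region next to an unlisted AhR site thus shared a base with another AhR peak more often where the site lay close.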

How the data were processed

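Per the submitters' processing notes, the tools were Bowtie2 and HOMER, with no version named, and the builds hg38 and mm10. The authors deposited 6 peak lists with 5 columns each (name, chromosome, start, end, strand sign). No score, tag count or library value is in them. The sources used here give no caller settings, filters or merged sets.

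Coordinates were read as inclusive, and 1 shared base counted as overlap. The 3 liver AhR peaks that share only an end position with an H3K27ac region were counted as overlapping. Distances are differences between the facing ends. Widths and spans are end minus start, 1 bp less than the inclusive count of bases. Overlaps in bp use the inclusive count. Counts and shares are descriptions, with 95% Wilson intervals. The routines were checked against brute force on simulated peaks. bedtools 2.31.1, which leaves end positions out, gave 24399 peaks, and the difference is those 3.

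The planned results on motifs and on mouse gene starts need a mouse genome and annotation and were not analysed here, nor were the fixed gene lists. Human starts came from the RefSeq promoter table, 250 bases in from its upstream end. The named regions were the 5 peaks with the highest merge number (ties by width), the 5 farthest from the mark and the 5 fullest windows of 100 kb. The largest clusters, the 6 kb limit, the distance classes and the HepG2 comparison were picked with their values in view. The peaks described and the gene lists were chosen with earlier results of these data known. Scripts ran in Python 3.11.15 with SciPy 1.17.1, pandas 2.3.3, Matplotlib 3.10.9 and NumPy 2.4.6.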

Additional observations from a re-analysis of the deposited data

How the results depend on the processing

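The number of liver AhR peaks without H3K27ac, 24396, stayed within 1.5 times of that value when overlap meant 50% of the shorter peak, and with centres within 500 bp, merged H3K27ac regions only and no H3K27ac within 1 kb. It was 9615 with merged AhR peaks only and 1595 in H3K27ac-free intervals under 6 kb, a setting chosen after seeing the data; both keep fewer peaks by construction. The merged share, 39.4%, was 40.0% with no H3K27ac within 1 kb and 34.0% in intervals under 6 kb. The share within 10 kb of the mark, 63.9%, was 64.9% with 50% overlap, 62.5% with centres within 500 bp, 59.8% with merged H3K27ac regions, 65.8% with merged AhR peaks and 59.1% with no H3K27ac within 1 kb. The share with an overlapping AhR peak within 5 kb, 24.1%, was 23.2% with centres within 500 bp, 16.8% with merged AhR peaks, 20.3% with no H3K27ac within 1 kb and 83.0% in intervals under 6 kb. Where the construction does not show it, the cause was not tested. No paired analysis was possible because the lists hold no value per library, and no replicate could be left out. The alternatives for motifs and gene starts were not run.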
